A study of Mus musculus with 3 samples.

Results

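T-box transcription factors share a DNA-binding domain, the T-box, and are named after the mouse Brachyury gene T. The 8 genes described here, Tbx1, Tbx2, Tbx3, Tbx4, Tbx5, Tbx15, Tbx18 and Tbx20, are the members known for their part in the heart, the limb buds and body wall, and the pharyngeal arches. They were chosen by name from the 16358 genes that the array's probes could be matched to, and all 8 had at least 1 probe. No measured value entered the choice, although earlier results of these arrays were known.

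Transcript levels were read in whole mouse embryos of mixed background on 3 one-colour arrays, each hybridised with the RNA of a pool of 3 embryos. One group, here called triple null, was MafF-/-:MafG-/-:MafK-/- at stage E10.5. The others kept MafG, with the genotype MafF-/-:MafG+/+:MafK-/-, and were taken at E10.5 (E10.5 control) or a day earlier at E9.5 (E9.5 control). All 3 groups carry both the MafF-/- and MafK-/- genotypes by label, which affect small Maf proteins that pair with CNC and BACH factors on DNA, so no array holds wild-type embryos and the triple null differs from the E10.5 control in MafG. With 1 array a group there is no replicate error, no difference was tested, and "higher" and "lower" describe these 3 arrays.

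In the embryo, Tbx5 and Tbx20 act with Nkx2-5 and GATA factors in the heart, where Tbx5 activates genes of the working chambers and Tbx2 and Tbx3 repress them in the atrioventricular canal and conduction tissue. Tbx5 marks the forelimb bud and Tbx4 the hindlimb bud, and both act upstream of Fgf10. Tbx1 acts in the pharyngeal arches and the second heart field, Tbx18 in the epicardium, sinus horns and somites, and Tbx15 in limb and trunk mesenchyme that gives rise to the scapula and to dermis.

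Tbx15 set itself apart from the other members. Its level in the triple null was 7.29-fold below the E10.5 control, which in turn stood 8.61-fold above the E9.5 control, and the triple null lay 1.18-fold above the E9.5 control. Tbx2 had the same order with smaller steps, 2.00-fold below the E10.5 control in the triple null and 2.17-fold higher at E10.5 than at E9.5 in the controls. Tbx5 and Tbx20, the heart members, were highest in the triple null, 1.57-fold and 1.65-fold above the E10.5 control, and Tbx1 varied least over the 3 arrays.

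A gene was counted in a comparison where both arrays read it well above background and its levels were at least 2-fold apart. Between triple null and E10.5 control, 2 of the 8 members were counted, both lower, beside 5.46% of the 12535 genes measured on both arrays (4.48% lower and 0.981% higher). At 1.5-fold, 5 of 8 were apart (Tbx2, Tbx3, Tbx5, Tbx15 and Tbx20), beside 13.9%, and by any amount 5 were lower and 3 higher, beside 41.6% and 58.4%. Tbx2 was the last of the 561 lower genes by size, at a log2 difference of -1.001, so its place in this count rests on a margin smaller than the spot error of 0.075 given below. Over the 8 members the median log2 difference was -0.34, beside 0.06 over all genes; with normexp background correction, which shrinks differences of dim spots, the members' median was 0.013 and Tbx15 alone was 2-fold apart.

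Between the controls, 2 of 7 members were at least 2-fold apart, both higher at E10.5, beside 5.2% of 12518 genes (4.13% higher and 1.07% lower). The same 2 were 1.5-fold apart, beside 13.6%, and by any amount 4 were higher and 3 lower, beside 42.8% and 57.2%. The members' median was 0.34, beside -0.05 over all genes. Between triple null and E9.5 control, 0 of 7 members were 2-fold apart, beside 0.79% of 12526 genes (0.255% higher and 0.535% lower), and 0 were 1.5-fold apart, beside 3.03%. By any amount 5 were higher in the triple null and 2 lower, beside 51.5% and 48.5%, with a median of 0.12. The 3 comparisons share their arrays, and the third is the sum of the other two on the log2 scale, so they are not separate evidence.

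**Figure D1:**
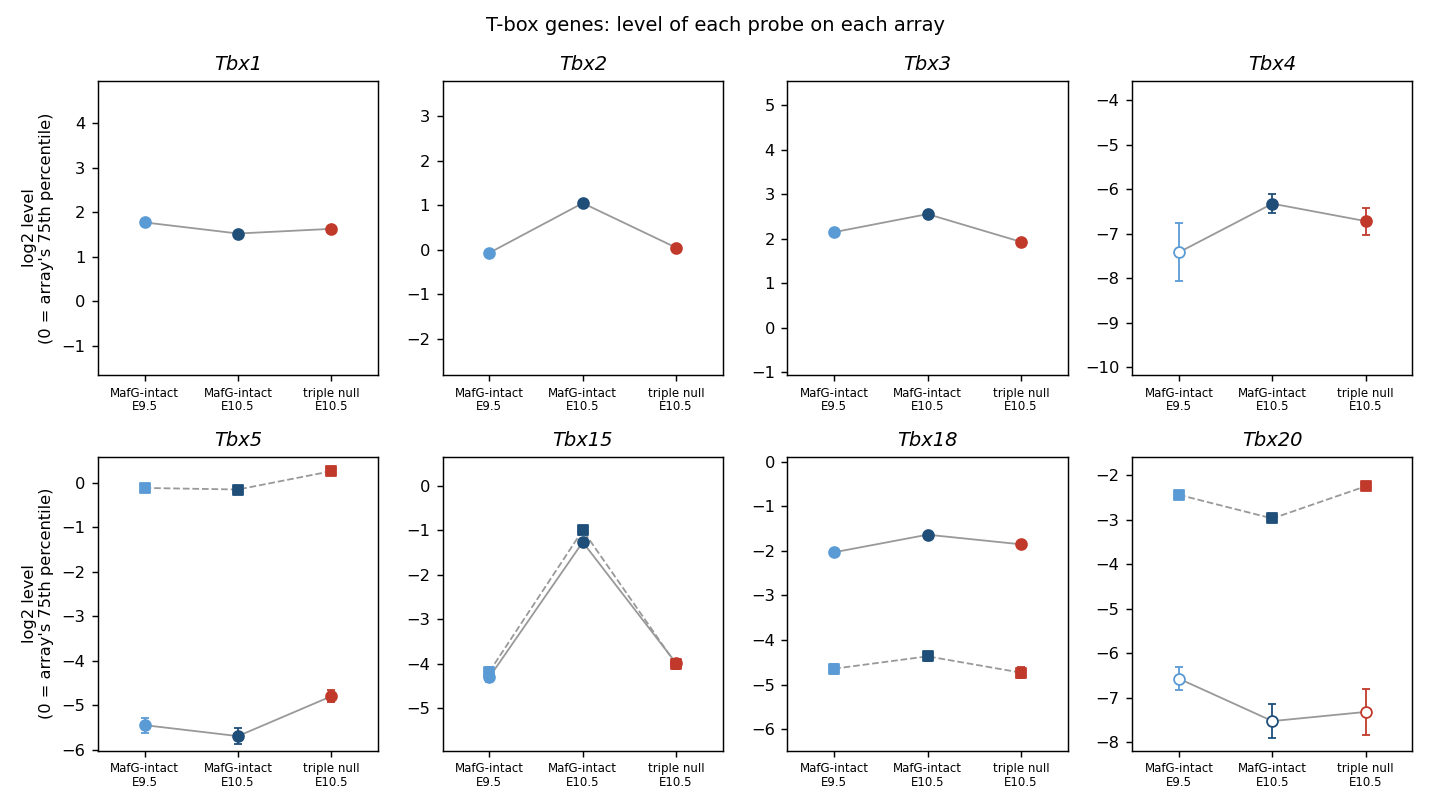
Level of each probe of the 8 T-box genes on each array, in log2 units relative to the 75th percentile of the array, with every panel spanning the same height. Circles and squares are the probes of a gene, open symbols were not well above background, and bars are the median SD of spots of probes printed 10 times at a similar level (technical error only). The controls are labelled MafG-intact, and both probes of Tbx15 stand high in the E10.5 control alone.

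The targeted genes were read first. Mafg had a log2 level of 0.48 in the E10.5 control and 1.03 in the E9.5 control. In the triple null it was not well above background (-7.74), and that undetected signal lay 299-fold below the E10.5 control. Maff and Mafk transcripts were well above background on all 3 arrays although every pool is labelled null for them. The level of Maff was -1.70 in the triple null, -1.65 in the E10.5 control and -1.56 in the E9.5 control, and that of Mafk was -3.97, -4.12 and -3.81. Whether these probes lie in the deleted parts is not given in the sources used here, so their readings do not check the labels. Sex-linked genes also differed between the pools. Xist, expressed from the inactive X chromosome, lay at 0.18 in the E10.5 control and was not above background in the other two pools. Ddx3y, from the Y chromosome, lay at 0.41 in the triple null and 0.17 in the E9.5 control and was not above background in the E10.5 control. Sex and group therefore cannot be told apart in either comparison with the E10.5 control.

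Tbx15 is the member of limb, trunk and craniofacial mesenchyme. Its first probe read an intensity of 67.9 in the triple null, 589 in the E10.5 control and 53.9 at E9.5. Its second probe read 66.7, 710 and 58.8 in the same order. After scaling, the levels of the 2 probes averaged -4.001, -1.13 and -4.24. The E10.5 control was the high one on both probes, and the other two lay close together.

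The log2 difference of Tbx15 between triple null and E10.5 control was -2.72 on one probe and -3.01 on the other. Spots of probes printed 10 times, at the levels of these probes, gave a spread of 0.11 for such a difference, a technical error that leaves out differences between embryos. Tbx15 ranked 26th from the lowest of 12535 genes in this comparison and 13th from the highest of 12518 genes between the controls. With normexp correction its differences were -1.98 and 2.08. The rise from E9.5 was 3.03 and 3.18 on the 2 probes, and between triple null and E9.5 the probes gave 0.31 and 0.16, where the spot spreads were 0.14 and 0.15.

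Tbx2 and Tbx3 are repressors of chamber genes in the atrioventricular canal and are also expressed in limb bud margins and pharyngeal arches. Tbx2 was read by 1 probe, with intensities of 1111 in the triple null, 2930 in the E10.5 control and 1012 at E9.5. Its log2 levels were 0.04, 1.05 and -0.07. The E10.5 control was again the high one, and the difference of 0.12 between the other two was near the spot spread of 0.087.

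Tbx3 was also read by 1 probe, with intensities of 4103 in the triple null, 8330 in the E10.5 control and 4710 in the E9.5 control. Its log2 level was 1.93, 2.55 and 2.15 in that order, so it was 1.54-fold lower in the triple null than in the E10.5 control and 1.32-fold higher at E10.5 than at E9.5. The triple null was lowest, 1.16-fold below E9.5, at a log2 difference of -0.22 beside a spot spread of 0.081. Tbx3 therefore followed the order of Tbx2 against E10.5 and lay on the other side of it against E9.5.

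Tbx4 and Tbx5 are the hindlimb and forelimb members; Tbx5 is also a heart factor. Tbx4 was read close to background. Its 1 probe gave intensities of 10.2 (error 2.10, as Feature Extraction gives it) in the triple null, 17.7 (error 2.89) in the E10.5 control and 6.23 (error 1.96) at E9.5, where it was not well above background. Against that undetected E9.5 signal Tbx4 read 2.13-fold higher in the E10.5 control and 1.62-fold higher in the triple null. These log2 differences of 1.09 and 0.70 stood beside spot spreads of 0.69 and 0.72, so the second was within its spot spread.

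Between the E10.5 pools Tbx4 differed by -0.39 on the log2 scale. The spot spread at its level was 0.37, and the sign turned with normexp correction, to 0.23, so no direction can be read for Tbx4 at this stage.

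Tbx5 had 2 probes. The brighter one read 1292 in the triple null, 1280 in the E10.5 control and 983 at E9.5, and the dimmer one read 38.9, 27.5 and 24.5. The intensities of the brighter probe on the E10.5 arrays are almost alike, and the arrays' scale differs: the 75th percentile was 1078 for the triple null and 1420 for the E10.5 control. After scaling, both probes were higher in the triple null, by 0.41 and 0.90 (log2) against spot spreads of 0.074 and 0.22, and with normexp their mean was 0.48.

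Averaged over its probes, Tbx5 lay at -2.27 in the triple null, -2.92 in the E10.5 control and -2.78 at E9.5. Among the 7 members above background on both arrays it lay farthest above E9.5 in the triple null, at 0.51 (1.43-fold), with 98.1% of all genes below it; the probes gave 0.38 and 0.65, and normexp gave 0.23. Between the controls Tbx5 differed by -0.14, and its probes by -0.04 and -0.25, close to or below their spot spreads of 0.081 and 0.24.

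Tbx20, a heart factor needed for chamber growth, was read by 1 usable probe. A further probe, matched through another RefSeq transcript accession, was not well above background on any array and was left out. The usable probe read 227 in the triple null, 181 in the E10.5 control and 196 at E9.5, or log2 levels of -2.25, -2.97 and -2.44. The triple null was highest and the E10.5 control lowest, 0.72 (1.65-fold) apart, beside a spot spread of 0.094; 97.6% of all genes lay below Tbx20 in this comparison. From E9.5 to E10.5 in the controls it was 1.44-fold lower. Its difference of 0.19 between triple null and E9.5 became -0.28 when the dim probe was averaged in.

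Tbx18 acts in the epicardium, sinus horn myocardium and anterior part of each somite. Its brighter probe read 299 in the triple null, 457 in the E10.5 control and 261 at E9.5, and the dimmer one 40.5, 68.8 and 42.5. The log2 difference between the E10.5 pools was -0.22 and -0.37, beside spot spreads of 0.082 and 0.17, and the average of -0.29 shrank to -0.071 with normexp. Tbx18 was 1.26-fold higher at E10.5 than at E9.5 in the controls, and 1.03-fold apart between triple null and E9.5, where its probes took opposite signs (0.18 and -0.09).

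Tbx1, the pharyngeal arch and second heart field member, was read by 1 bright probe. Its intensities were 3323 in the triple null, 4069 in the E10.5 control and 3625 at E9.5, and its log2 levels 1.62, 1.52 and 1.77. All 3 levels lay within 0.25 of each other, the smallest range of the 8 members. Tbx1 was 1.08-fold higher in the triple null than in its stage control, at a log2 difference of 0.11 beside a spot spread of 0.073, and 1.19-fold lower at E10.5 than at E9.5.

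**Figure D2:**
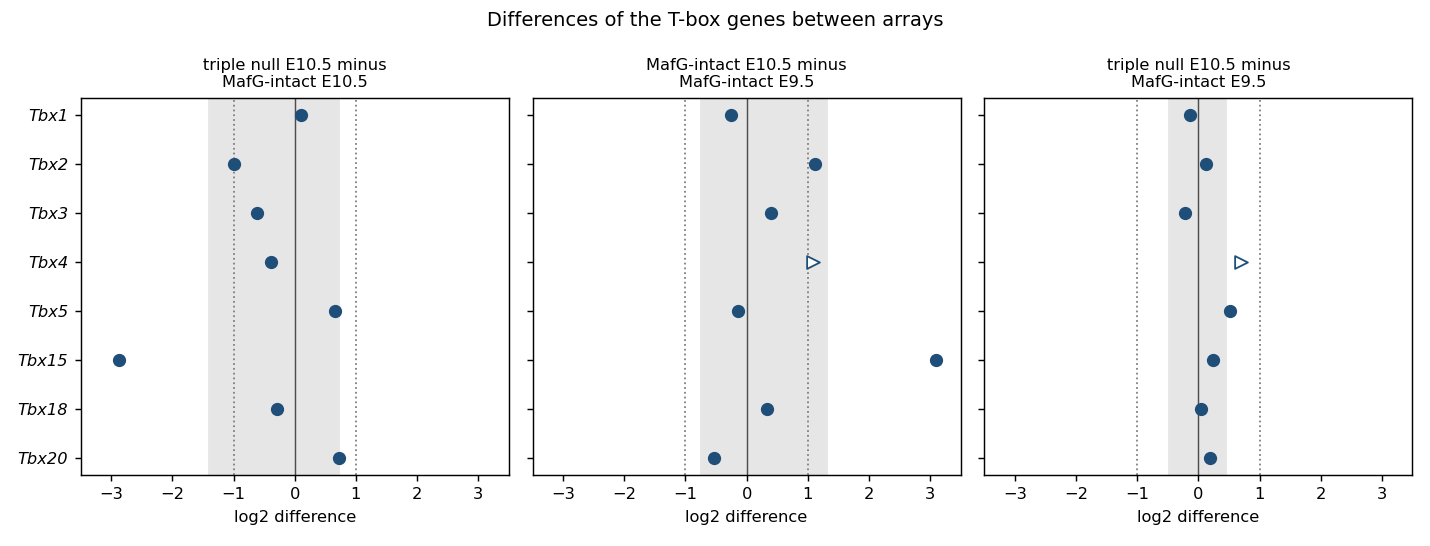
Log2 differences of the 8 T-box genes in the 3 comparisons (points). Open triangles, pointing to larger values, show Tbx4 against its undetected E9.5 signal, where it was above background on 1 array. The grey band holds the middle 95% of all genes measured in that comparison, and dotted lines mark 2-fold. Tbx15 lies far outside the band at -2.87 and 3.11, Tbx20 just outside it in the first panel (0.72) and Tbx5 in the third (0.51), and no member is 2-fold apart in the third panel.

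Sequence upstream of the transcription start was at hand from RefSeq (build GRCm38.p6) for 4 of the 8 members, Tbx1, Tbx4, Tbx18 and Tbx20. Because the genotypes remove proteins that bind Maf elements, and the members bind T-box sites, the 250 bases before each start were searched on both strands for 4 sets of letters: the antioxidant response element core TGACNNNGC, the AP-1 core TGACTCA, the Maf half-site TGCTGAC and the T-box half-site core AGGTGT. Shown are both windows with a match and, for contrast, that of Tbx20, the member with the largest positive difference between the E10.5 pools, each 5′ to 3′ along the gene's strand with matches in capitals.
Tbx18, chr9:87731261-87731510, minus strand: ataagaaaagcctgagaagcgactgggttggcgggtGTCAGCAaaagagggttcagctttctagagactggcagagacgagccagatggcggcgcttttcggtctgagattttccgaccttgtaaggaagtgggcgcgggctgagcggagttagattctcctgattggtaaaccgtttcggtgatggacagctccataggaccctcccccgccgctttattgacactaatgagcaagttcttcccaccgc
Tbx1, chr16:18590672-18590921, minus strand, the upstream of its 2 listed starts: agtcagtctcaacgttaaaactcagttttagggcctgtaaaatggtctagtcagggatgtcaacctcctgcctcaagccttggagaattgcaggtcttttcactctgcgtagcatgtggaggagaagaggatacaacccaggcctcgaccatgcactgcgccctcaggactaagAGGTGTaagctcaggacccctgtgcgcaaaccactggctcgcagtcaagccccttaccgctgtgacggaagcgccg
Tbx20, chr9:24774304-24774553, minus strand: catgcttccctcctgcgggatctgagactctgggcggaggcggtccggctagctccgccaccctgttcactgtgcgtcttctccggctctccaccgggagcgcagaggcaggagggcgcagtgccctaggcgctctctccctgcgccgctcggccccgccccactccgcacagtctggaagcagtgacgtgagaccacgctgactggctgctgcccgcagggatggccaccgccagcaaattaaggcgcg
The capitals in Tbx18 are the Maf half-site read on the opposite strand, beginning 214 bases before the start, and those in Tbx1 are the T-box half-site core, beginning 76 bases before the start. Neither the antioxidant response element core nor the AP-1 core was found in the 5 member windows. The Maf half-site occurred in 3.81% of 32851 windows of the same length, the T-box half-site core in 11.8%, the antioxidant response element core in 10.2% and the AP-1 core in 4.46%, so single matches of this kind are common. A match is a description of letters and not a binding site.

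Several members lie side by side in the genome. Tbx2 and Tbx4 are adjacent protein-coding genes on chromosome 11, and Tbx3 and Tbx5 on chromosome 5. Between the E10.5 pools Tbx3 and Tbx5 differed in opposite directions (-0.62 and 0.65), and the value of Tbx2 was -1.001 beside -0.39 for Tbx4. Of 24 other protein-coding genes within 2 places of a member, 17 were measured on both E10.5 arrays, with a median of 0.05. Of these, Lhx5, a neural homeobox gene next to Tbx5 but one, was 2-fold apart, at -1.36 against the E10.5 control and -1.004 against the E9.5 control. The measured neighbours of Tbx15, Wars2 (0.05) and Wdr3 (0.41), had no difference near its -2.87. The septin gene Septin5 (-0.95) and the platelet glycoprotein gene Gp1bb (-0.79) lie beside Tbx1.

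T-box genes outside the 8 were read as well. Of 9 listed, 4 were measured on both E10.5 arrays. In the triple null 2 of these were at least 2-fold above the E10.5 control and none below, beside 0.981% and 4.48% of all genes. Tbx6, which specifies paraxial mesoderm, lay at 0.81 in the triple null, -0.86 in the E10.5 control and 0.98 at E9.5, and T, the Brachyury gene of the tail bud, at -1.22, -2.59 and -1.13. Both were low in the E10.5 control, the reverse of Tbx15 and Tbx2.

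Eomes, a factor of early mesoderm and of cortical progenitors, was above background in the E10.5 control alone (level -4.68). Its level there lay 14.0-fold above the dimmest detected probe of the triple null and 9.51-fold above that of E9.5. Tbx22, known from palate development, was also above background in the E10.5 control alone, at a dim level of -5.68. That was 2.76-fold above its undetected signal in the triple null. Mga, which also carries a bHLH domain, differed by -0.32 between the controls, and the dim Tbx21 took either sign between the E10.5 pools (-0.57, or 0.20 with normexp). Tbr1, Tbx10 and Tbx19 were not above background on any array.

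Heart genes that act with Tbx5 and Tbx20 were read next, since the T-box factors share their targets with them. The 12 heart factors had a median of 0.31 (-0.026 over the 5 at or above the median level of all genes). In the triple null 1 was at least 2-fold above the E10.5 control and none below, beside 0.981% and 4.48% of all genes. That 1 was Nkx2-5, the cardiac homeobox gene, at 1.01, which falls under 2-fold with normexp (0.95) and when scaled on detected genes or spike-in probes, with levels of 0.33 in the triple null, -0.68 at E10.5 and -0.10 at E9.5. Gata5 (0.95), Irx4 (0.63), a ventricular factor, and Gata4 (0.60) lay between 1.5-fold and 2-fold. Isl1, listed here for the second heart field, was at -0.49. Its level was 0.22 in the triple null, 0.71 in the E10.5 control and 0.21 at E9.5. Whole-embryo RNA does not show which tissue such a reading came from.

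Chamber genes had a median of 0.35, with 8 of 8 measured members above 0 and 2 at least 2-fold higher, the atrial light chain gene Myl7 (1.03) and the myosin gene Myh6 (1.02, or 0.95 with normexp). With quantile normalization neither was 2-fold apart. Of all genes measured on both E10.5 arrays, 58.4% were above 0 and 0.981% at least 2-fold higher. Nppa, the natriuretic peptide gene that Tbx5 activates and Tbx2 represses, was level between the E10.5 pools at 0.01. Genes of the atrioventricular canal and sinus had a median of 0.13. Among them Shox2, a sinus node and limb factor, had the order of Tbx15: -5.72 in the triple null, -4.10 in the E10.5 control and -6.44 at E9.5, a difference of -1.62 between the E10.5 pools that shrank to -0.48 with normexp; its 2.34 between the controls shrank to 0.64. Bmp2, which induces Tbx2 in the atrioventricular canal, went the other way from Tbx2, at 0.85 between the E10.5 pools and -1.28 from E9.5 to E10.5 (-0.92 with normexp).

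Limb bud genes were read around Tbx4 and Tbx5. The 22 measured on both E10.5 arrays had a median of -0.08 (-0.37 over the 8 at or above the median level of all genes). In the triple null 1 was at least 2-fold below the E10.5 control and none above, beside 4.48% and 0.981% of all genes. The lower gene was Lhx9 (-1.34, or -0.99 with normexp), listed here as a LIM factor of limb mesenchyme. In whole embryos the tissue behind its signal cannot be told. Fgf10, the limb growth factor downstream of Tbx4 and Tbx5, was at 0.08, and Pitx1, which acts upstream of Tbx4 in the hindlimb, at -0.04. Between the controls Lhx9 was higher (1.26) and Sall4, a partner of Tbx5, lower (-1.004, or -0.90 with normexp), with a list median of 0.04 that turned to -0.030 with normexp. Hoxa13, a factor of the distal limb, was 1.02 above E9.5 in the triple null at a dim level, and 0.21 with normexp.

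Genes of the pharyngeal arches around Tbx1 had a median of 0.14 over 20 measured members. For comparison, 5.46% of all genes were at least 2-fold apart between the E10.5 pools. Nkx2-6, a homeobox gene of the pharynx and outflow tract, was the 1 gene at least 2-fold apart, at 1.65 between the E10.5 pools (1.08 with normexp) and -1.30 from E9.5 to E10.5, where normexp gave -0.91, under 2-fold. Ripply3, a repressor partner of Tbx1, was at 0.55 and -0.62 in the same comparisons and led the list of corepressors together with Tle2 (-0.65 and 0.55); none of 6 measured corepressors was 2-fold apart.

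Epicardium genes, the company of Tbx18, had a median of -0.42 between the E10.5 pools (-0.21 with normexp). There 5 of 6 were below 0, beside 41.6% of all genes, and none was 2-fold apart. Between the controls their median was 0.38 (0.16 with normexp), and the uroplakin gene Upk1b was higher by 1.28 (0.31 with normexp). Scapula and dermal mesenchyme genes, the company of Tbx15, had a median of -0.13 between the E10.5 pools (-0.41 over the 5 at or above the median level of all genes). Here 7 of 9 were below 0, beside 41.6% of all genes, and none was 2-fold apart. Twist2, a factor of dermal mesenchyme, lay at -0.79 and Emx2, which is needed for the scapula, at -0.75. The difference of Tbx15 itself, -2.87, was larger in size than that of every measured gene of this list.

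**Figure D3:**
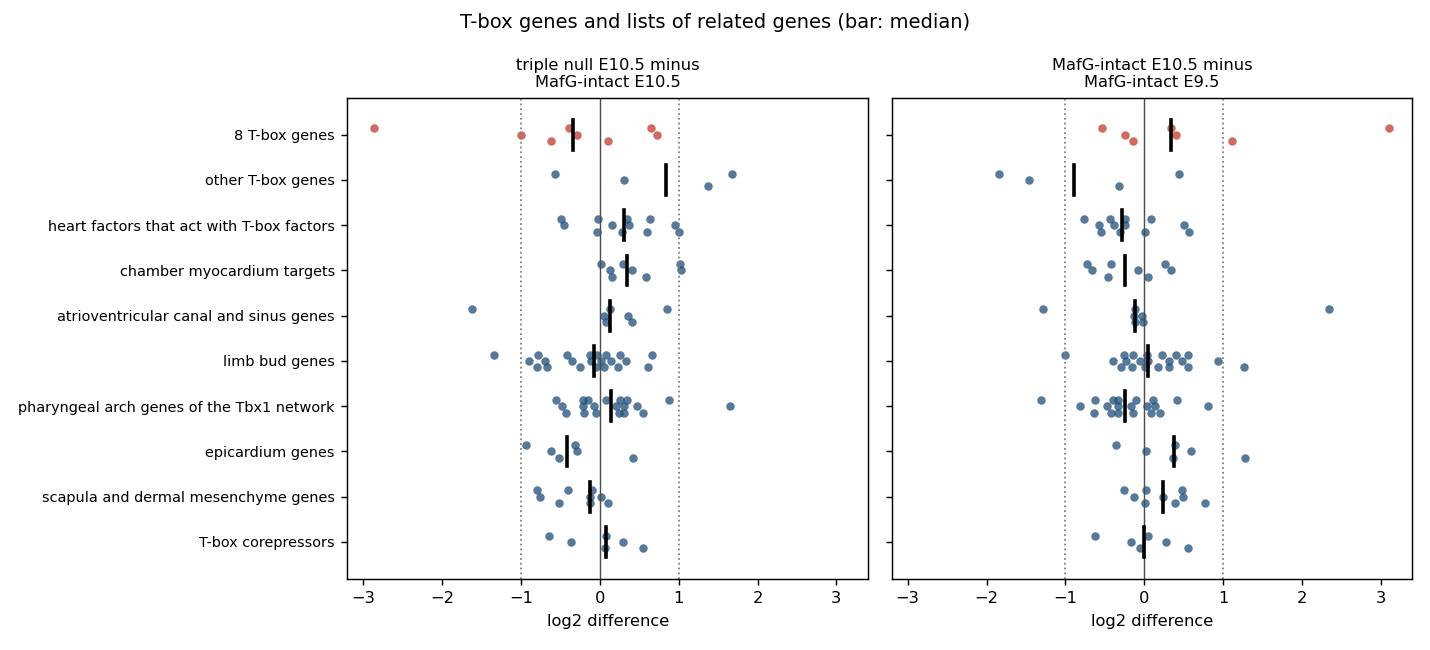
Log2 differences of the 8 T-box genes (red) and of genes in 9 related lists (blue, 1 point a gene above background on both arrays) between triple null and E10.5 control (left) and between the controls (right), with black bars at each list's median and dotted lines at 2-fold. The epicardium median of -0.42 on the left faces 0.38 on the right (-0.21 and 0.16 with normexp). Shox2 lies at -1.62 and 2.34 (-0.48 and 0.64 with normexp). Among the related lists it is the gene farthest out on the lower side at left and on the higher side at right.

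Likeness was measured as the Euclidean distance between levels over the 3 arrays after taking out each gene's mean, among 103 other members and listed genes. Within the members, Tbx5 and Tbx20 were each other's nearest (0.29), as were Tbx3 and Tbx18 (0.25), while Tbx15 had no member nearer than Tbx2 at 1.58. Over all genes compared, the nearest was Hand2 for Tbx1 (0.048), Rspo2 for Tbx2 (0.16), Upk3b for Tbx3 (0.013), Irx4 for Tbx5 (0.093), Sema3d for Tbx18 (0.023) and Gata4 for Tbx20 (0.15). No nearest gene is given for Tbx4, itself not above background at E9.5, or for Tbx15, whose nearest by the rule was Eomes, a gene above background in the E10.5 control alone. With 3 arrays such closeness is a description only.

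Summed levels of cell type markers were read beside these values. In bulk RNA, fewer cells of a type and less RNA per cell cannot be told apart. Cardiomyocyte markers summed to 216 in the triple null, 136 in the E10.5 control and 169 at E9.5, with 11 of 12 measured and above background on each array. The sums are in units of the array's 75th percentile, and bright genes lead them. The triple null had 1.59 times the sum of its stage control, while Tbx5 and Tbx20 were 1.57-fold and 1.65-fold higher. The brighter and dimmer probes of Tbx5 gave 1.33-fold and 1.86-fold, so the nearness of its mean to 1.59 depends on averaging them. The markers' median difference was 0.76, from Nppa (0.01) to Myl7 (1.03), and Ryr2 was not above background on any array. The part of this shift in the values of Tbx5 and Tbx20 was not tested.

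Limb mesenchyme markers, all 7 above background on each array, summed to 34.7, 39.5 and 35.5 in the same order of arrays, a ratio of 0.878 between the E10.5 pools beside the 7.29-fold difference of Tbx15. That sum is led by Prrx2, which was itself higher in the triple null by 0.15, while Lhx2 was at -0.90. The median difference of the 7 genes was -0.36 (-0.053 with normexp), with 5 below 0, beside 41.6% of all genes. Arch ectomesenchyme markers summed to 4.23, 4.58 and 4.73 (6 of 7 measured; Dlx6 had no named probe), and pharyngeal endoderm markers to 4.12, 3.56 and 4.44. Neuron markers summed to 7.85, 33.0 and 8.02, blood cell markers to 125, 309 and 159, and yolk sac endoderm markers (4 of 6 measured; Cubn and Apob had no named probe) to 8.27, 19.6 and 14.1. Between the E10.5 pools the limb mesenchyme markers ran from Lhx9 (-1.34) to Prrx2 (0.15), those of arch ectomesenchyme from Dlx1 (-0.53) to Dlx3 (0.29) and those of pharyngeal endoderm from Nkx2-1 (-0.74) to Pax8 (1.28). Neuron markers ran from Dcx (-2.53) to Tubb3 (-1.86), with 6 of 6 at least 2-fold lower. Of the blood cell markers 5 of 6 were at least 2-fold lower, the lowest being Tyrobp (-3.59). Among all genes 4.48% were at least 2-fold lower. Yolk sac endoderm markers ran from Ttr (-1.28) to Amn (0.54). Like Tbx15 and Tbx2, sums of neuron, blood cell, yolk sac endoderm and limb mesenchyme markers were highest in the E10.5 control. Among these sums that of limb mesenchyme differed least between the E10.5 pools, at the ratio of 0.878 given above. The part of these sums in the values of Tbx15 and Tbx2 was not tested. Afp leads the yolk sac endoderm sum. Between the controls the median difference of the 4 yolk sac endoderm genes was -1.50, with 3 lower at E10.5, so that sum does not stand for its list.

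**Figure D4:**
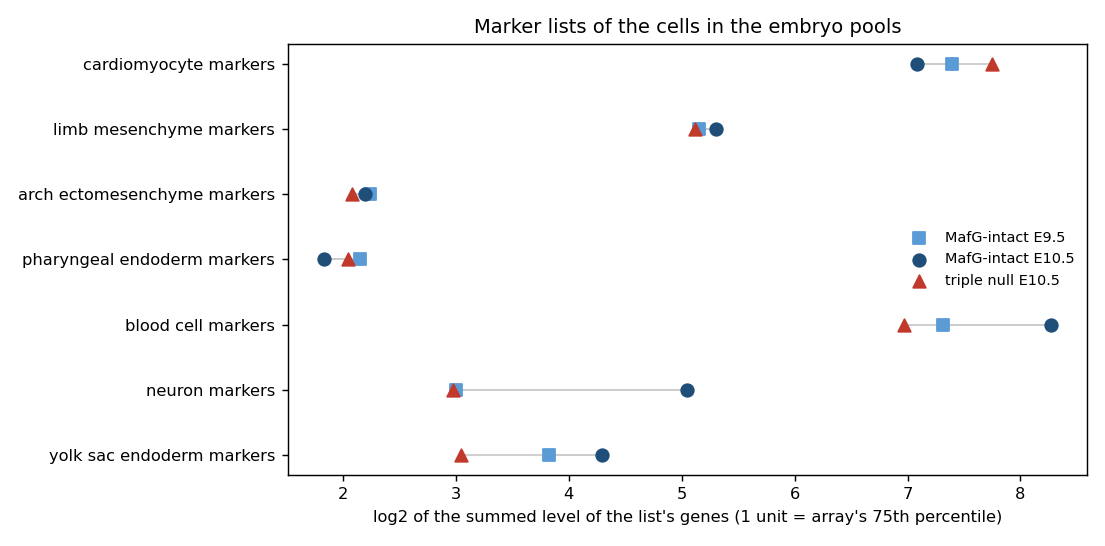
Summed level of each marker list on each array, as log2, with 1 unit on the linear scale equal to the array's 75th percentile. Cardiomyocyte markers are highest in the triple null (216 on the linear scale), while neuron and blood cell markers are highest in the E10.5 control (33.0 and 309).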

How the data were processed

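RNA from whole embryos was amplified, Cy3-labelled and put on Agilent arrays, per the labels' protocols. The authors deposited scanner output of array design 014868, read by Feature Extraction 9.5.3.1 with the GE1-v5_95_Feb07 protocol (annotation build mm7), per the file headers. Per the file headers, the unit is linear intensity after the authors' software subtracted background; the deposited value table holds the same intensity, rounded (largest difference 0.497%, medians 84.0, 115 and 83.4). All 3 arrays share slide 1 and scan 1.

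Each array's 43379 non-control spots were expressed as log2 intensity minus the array's 75th percentile (1078 for triple null, 1420 and 1064 for the E10.5 and E9.5 controls). Outlier flags removed 59, 52 and 83 spots, and no spot was saturated. Probes were named through RefSeq accessions in a table of assembly GRCm38.p6 (22950 of 41170 probes had 1 symbol). As its build differs from the array's, it gave names and gene order only; promoter windows carry RefSeq's own coordinates. A gene's level is the mean over its probes detected on 1 or more arrays (13193 genes). For genes detected on a single array of a pair, the fold was taken against a floor on the dim array. This floor was the gene's own signal or the dimmest detected probe, whichever is larger. The dim signal carries spot error, so such a fold is not a strict minimum. On the 3 arrays 69.2%, 70.4% and 69.1% of probes were well above background, and precision is limited by there being 3 arrays. Steps were tested on simulated data with spot noise only, in which the changed genes were detected on all arrays and not dim. Dim readings and differences between embryos were not covered.

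Members and lists were chosen with earlier results of these data known. Named genes were all members, the genes of each list at least 2-fold apart (at most 3 in each direction) or else the 2 farthest apart, the nearest gene to each member (left out where not measured on all arrays), and, of each marker list, its highest and lowest member (given for the E10.5 pools; 1 of these is not reported here); genes named beside these, for their known link to a member, were chosen after their values were seen. Alternatives were normexp (offset 50, on median spot intensity), quantile normalization, scaling on detected genes or on 10 spike-in probes, no filter or a median-level filter on dim genes, the value table, cut-offs of 1.5-fold or 3-fold, and the brightest probe of each gene. Tools were Python 3.11.15, pandas 2.3.3, numpy 2.4.6, matplotlib 3.10.9, R 4.3.3 and limma 3.58.1.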

Additional observations from a re-analysis of the deposited data

How the results depend on the processing

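Of 22 member differences, 20 kept 1 sign under every alternative that gave a value; the exceptions were Tbx4 between the E10.5 pools and Tbx20 between triple null and E9.5. Spot spread, the SD of a difference between spots of probes printed 10 times, set what counts as moved. The count of members 2-fold apart between the E10.5 pools (2) became 1 with normexp, 1 among genes at or above the median level (3 members left), 5 at 1.5-fold and 1 at 3-fold; their median (-0.34) became 0.013 with normexp and -0.62 at or above the median level. Between the controls the count (2) became 1 at or above the median level and 1 at 3-fold, and the median (0.34) became 0.11 with normexp. Between triple null and E9.5 the count was 0 under every alternative, and the median (0.12) became -0.14 at or above the median level. The remaining alternatives kept counts within 1.5 times and medians within the spot spread. Tbx2 between the E10.5 pools ranged from -1.02 to -0.97, on both sides of 2-fold. Tbx15 ranged from -3.01 to -1.98 there and from 2.08 to 3.18 between the stages. The share of all genes 2-fold apart between the E10.5 pools fell from 5.46% to 2.13% with normexp, whose offset shrinks dim differences by construction. Dim members (Tbx4, a probe each of Tbx5, Tbx18 and Tbx20) are limited by signal over background. No paired analysis was possible because each group is 1 array. No replicate could be left out for the same reason.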
